A study of Mus musculus with 3 samples.

Results

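GIMAP proteins (GTPases of the immunity-associated protein family) are small GTP-binding proteins made chiefly in lymphocytes. The 8 genes described here, *Gimap1*, *Gimap3*, *Gimap4*, *Gimap5*, *Gimap6*, *Gimap7*, *Gimap8* and *Gimap9*, were chosen by name among the 25759 genes counted in each library, and no other gene whose name starts with Gimap was listed. They lie in 1 cluster of 123.618 kb on chromosome 6. All 8 were among the 7017 genes called expressed here, which had an RPKM (exon reads scaled to exon length and to library size) above 5 in at least 1 library.

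RNA came from TFR cells, the follicular regulatory T cells that carry Foxp3 and the chemokine receptor CXCR5, and 1 library was made for each of 3 genotypes. For the library labelled N the genotype was Nfatc1 fl/fl.Prdm1 gfp/+.FIC: Cre made from the *Foxp3* locus (Foxp3-IRES-Cre, FIC) acts on floxed *Nfatc1* in Foxp3-expressing cells. For αA it was Nfatc1 caaA.Prdm1 gfp/+.FIC, where Foxp3-expressing cells make constitutively active NFATc1/αA. For PαA it was Nfatc1 caaA.Prdm1 gfp/fl.FIC, with in addition a floxed allele of *Prdm1*, the gene of Blimp-1. The title of this sample calls it Blimp-1-deficient as well as NFATc1/αA-overexpressing. All 3 genotypes shared FIC and 1 *Prdm1* allele that reports by GFP, and all mice were given 125 µg NP-KLH in alum, were boosted on day 7 and gave GFP+ CXCR5+ GITR-high CD4+ cells of spleen and mesenteric lymph nodes on day 10. How many mice stood behind a library is not given in the sources used here.

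Members of the family sit on or near the membranes of several organelles, among them the endoplasmic reticulum, the mitochondrion, the lysosome and vesicles. Several are needed for T cells to survive in the periphery: loss of *Gimap5* in rats or mice leaves few mature T cells, and loss of *Gimap1* depletes mature T and B cells. The proteins bind GTP and some of them pair with each other on membranes, and GIMAP6 is also known as a partner of the autophagy protein GABARAPL2.

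Regulatory sequence is shown first for 4 members, chosen as the genes with the largest (*Gimap7*, *Gimap6*) and the smallest (*Gimap9*) decrease in PαA against αA described later, and as the single gene with a Blimp-1-type match (*Gimap1*). Each window is the 250 bases before the RefSeq start of the gene in build GRCm38.p6, written 5′ to 3′ on the gene's own strand. Capitals mark GGAAA, the core bound by NFAT factors, or its reverse complement TTTCC, and in *Gimap1* also the reverse complement of AGNGAAAG, a core of the Blimp-1 site.
Gimap7 (chr6:48718371-48718620, plus strand): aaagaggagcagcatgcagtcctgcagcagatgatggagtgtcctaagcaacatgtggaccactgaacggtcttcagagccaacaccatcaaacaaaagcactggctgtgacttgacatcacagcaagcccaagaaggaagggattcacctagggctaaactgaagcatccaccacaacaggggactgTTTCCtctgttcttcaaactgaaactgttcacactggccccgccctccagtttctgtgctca
Gimap6 (chr6:48708245-48708494, minus strand): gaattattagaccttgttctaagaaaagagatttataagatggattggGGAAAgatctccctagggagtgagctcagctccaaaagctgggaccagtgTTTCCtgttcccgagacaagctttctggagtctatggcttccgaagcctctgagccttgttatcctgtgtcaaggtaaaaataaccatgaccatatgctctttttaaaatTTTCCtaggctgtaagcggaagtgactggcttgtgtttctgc
Gimap9 (chr6:48675885-48676134, plus strand): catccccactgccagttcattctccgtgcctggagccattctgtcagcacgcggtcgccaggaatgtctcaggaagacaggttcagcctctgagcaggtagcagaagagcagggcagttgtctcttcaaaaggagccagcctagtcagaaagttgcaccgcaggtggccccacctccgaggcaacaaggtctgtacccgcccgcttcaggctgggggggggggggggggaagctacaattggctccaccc
Gimap1 (chr6:48738797-48739046, plus strand): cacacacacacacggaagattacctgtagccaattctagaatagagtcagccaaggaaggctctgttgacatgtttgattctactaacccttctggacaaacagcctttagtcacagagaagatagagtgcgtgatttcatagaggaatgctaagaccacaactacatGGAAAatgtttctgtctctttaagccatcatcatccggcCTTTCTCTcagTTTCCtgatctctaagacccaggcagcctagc

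All 8 members were matched to RefSeq windows, 9 in number because *Gimap8* has 2 start sites. GGAAA on either strand was found for 7 of the 8 members, while 55.6% of the 32851 windows of all genes hold it, and *Gimap9* was the member without it. For *Gimap8*, 1 of the 2 windows held it. *Gimap6* and *Gimap5* each had 3 matches, *Gimap1* had 2 and the other members with a match had 1. AGNGAAAG was found for *Gimap1* alone, against 7.30% of all windows, and its match lay beside an NFAT core without overlapping it. AGGAAG, a core of ETS factors, was found for 7 members (29.5% of all windows) and missed *Gimap6*, TGTGGT, a RUNX core, for *Gimap1*, *Gimap4* and *Gimap7* (14.0%), TGTTTAC, a FOXO core, for *Gimap3* (3.17%), and CACACCC, a KLF core, for 0 members (6.93%). Each string was searched on both strands. GGAAA and AGGAAG both contain GGAA but cannot hold the same GGAA, whereas a GGAAA can lie within AGNGAAAG. These matches describe the letters of the windows, and no binding was measured in these libraries.

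The other sequence that bears on the counts is the longest stretch that 2 members have in common, which exceeds a read (59 bases). It is 140 bases of coding exon, at chr6:48765681-48765820 in *Gimap3* (minus strand) and chr6:48752684-48752823 in *Gimap5* (plus strand), in GRCm38.
Gimap3 and Gimap5, shared coding stretch: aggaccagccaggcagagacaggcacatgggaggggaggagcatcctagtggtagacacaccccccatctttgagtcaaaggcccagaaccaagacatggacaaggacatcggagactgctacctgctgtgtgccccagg

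For *Gimap3* and *Gimap5* only the longest match is printed, and in all 133 strings of 59 bases of *Gimap3* occur in *Gimap5* transcripts. The longest exact match in the other 27 of the 28 pairs of members was 17 bases. The cluster reads, in order along chromosome 6 of GRCm38, *Gimap8* (48647234 to 48660875), *Gimap9* (48676129 to 48679114), *Gimap4* (48684549 to 48692060), *Gimap6* (48701582 to 48708225), *Gimap7* (48718621 to 48724636), *Gimap1* (48739054 to 48743795), *Gimap5* (48746197 to 48754210) and *Gimap3* (48764464 to 48770851). *Gimap6* and *Gimap3* are on the minus strand and the other 6 on the plus strand. Exon lengths ran from 1356 bases for *Gimap7* to 3700 for *Gimap8*, which encodes the longest protein of the family, with several GTP-binding domains in a row.

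The libraries held 29726219 (N), 27239921 (αA) and 25465829 (PαA) reads, and 11 of 11 TFR markers, *Foxp3*, *Cxcr5* and *Cd4* among them, had reads in every library. All 7 B cell markers and all 5 CD8 T and NK cell markers had reads in every library too, so the presence of reads does not tell cell types apart. *Nfatc1*, counted over the whole gene, was at 63.6 RPKM in N, 62.9 in αA and 32.4 in PαA. This level was thus not lower in N than in αA, and it was lowest in PαA. The counts are not split by exon, so the floxed part alone cannot be read and the level does not show whether the labels hold. *Prdm1* was at 25.6, 24.9 and 10.0 RPKM. With no replicates there is no spread between mice and no test, and the intervals given are 95% intervals of counting error only, with PCR copies of a molecule counted as separate reads.

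Together the 8 genes took 111366 (N), 102808 (αA) and 66472 (PαA) exon reads, which is 0.403%, 0.424% and 0.286% of all exon reads. Their summed level was 1798 RPKM in N, 1843 in αA and 1262 in PαA. The first 2 libraries lay close together and PαA below both. In bulk RNA, fewer cells that make a transcript and less of it in each cell cannot be told apart.

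*Gimap4*, which codes for a GTPase of the endoplasmic reticulum and cytosol of T cells, was the most abundant member per length, at 578 RPKM in N, 604 in αA and 440 in PαA. In N it ranked 127th and in PαA 170th among all genes by RPKM. *Gimap3*, the close relative of *Gimap5* and known for its effect on how mitochondrial DNA variants segregate in mouse blood cells, followed at 342, 352 and 243 RPKM. The pair made up 51.2% of the family's summed RPKM in N, 51.9% in αA and 54.1% in PαA.

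*Gimap7*, whose human counterpart stimulates GTP hydrolysis by another member of the family, stood at 276 RPKM in N and 291 in αA, and at 141 in PαA. *Gimap1* stood at 232, 246 and 183 RPKM and *Gimap6* at 183, 160 and 103. *Gimap7* was thus 1.19 times the level of *Gimap1* in N, 1.18 times in αA and 0.774 times in PαA, the only change of order among the 5 most abundant members.

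The remaining 3 members were lower in every library. *Gimap9* was at 78.5, 86.2 and 71.7 RPKM in N, αA and PαA. *Gimap8* was at 61.0, 50.3 and 39.5 RPKM. *Gimap5*, the member whose loss leaves mice and rats short of T cells, was the least abundant in N at 47.4 RPKM (45.7 to 49.2) and stood at 52.9 (51.0 to 54.9) in αA and 41.9 (40.1 to 43.7) in PαA. In αA and PαA the counting intervals of *Gimap5* and *Gimap8* overlapped, and every other pair of neighbours in the order of levels was apart by more than counting error in every library. The first member of the order was 12.2 times the last in N, 12 times in αA and 11.1 times in PαA.

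**Figure D1:**
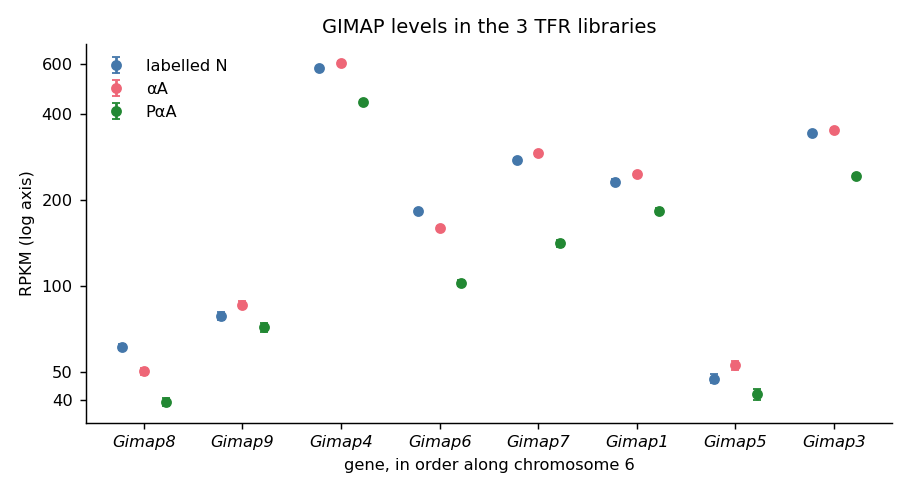
Level of each GIMAP gene in the 3 libraries (vertical, RPKM on a log axis; horizontal, genes in their order along chromosome 6), with 1 point per library and bars for the 95% counting interval, most of them smaller than the point. Each PαA point lies below the αA and N points of the same gene, from 39.5 RPKM for Gimap8 to 440 for Gimap4. With TMM or median-of-ratios scaling Gimap5 and Gimap9 are instead slightly higher in PαA than in N.

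The first comparison, αA against N, sets constitutively active NFATc1/αA against the library labelled as lacking NFATc1. The GIMAP genes differed little: 6 of 8 were higher and 2 lower in αA, where 31.9% of expressed genes were higher, with a median log2 ratio of 0.07 where the median of the 7017 expressed genes was -0.14. *Gimap5* had the highest ratio (log2 0.16, 0.08 to 0.23), next to *Gimap9* (0.13, 0.07 to 0.20). *Gimap6* (-0.20, -0.23 to -0.17) and *Gimap8* (-0.28, -0.33 to -0.23) were the members below 0. On exon reads no member differed by more than 2-fold, nor by more than 1.5-fold, where 4.25% of expressed genes passed 2-fold (1.44% higher, 2.81% lower) and 14.1% passed 1.5-fold (3.12% higher, 11.0% lower). On junction reads alone *Gimap5*, with 195 in N and 281 in αA, was past 1.5-fold (log2 0.65, 0.38 to 0.92), and *Gimap8* was at -0.55 (-0.74 to -0.36). Of these junction reads of *Gimap5*, only 103 in N and 131 in αA could be placed at 1 site.

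The summed level had a log2 ratio of 0.04 (0.02 to 0.05), a 1.02-fold difference. On summed exon reads, not scaled to exon length, the log2 ratio was 0.011 (-0.002 to 0.023). The split of 6 higher and 2 lower was the same with RPKM, TPM, TMM and median-of-ratios scaling, which moved every ratio by -0.03 (TPM), 0.16 (TMM) and 0.17 (median of ratios) on the log2 scale, the shift of all genes.

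The second comparison, PαA against αA, differs by label in the floxed *Prdm1* allele and so in Blimp-1 deficiency, with NFATc1/αA in both genotypes. *Nfatc1* RNA differed as well (62.9 and 32.4 RPKM). Here 8 of 8 members were lower in PαA, with a median log2 ratio of -0.44 against -0.06 for all expressed genes, of which 56.9% were lower. The decrease held for all 8 with RPKM, TPM, TMM and median-of-ratios scaling. The summed level was 1.46-fold lower (log2 -0.55, -0.56 to -0.53).

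*Gimap7* lay furthest below αA, with 11120 exon reads in N and 10747 in αA beside 4882 in PαA. Its log2 ratio was -1.04 (-1.09 to -0.99), or 2.06-fold lower. It was the single member past 2-fold, where 4.63% of expressed genes passed in either direction (2.18% higher, 2.45% lower), and 152 of the 7017 expressed genes had a lower ratio. Its interval reached the other side of the threshold. On TMM and median-of-ratios scaling it was at -0.97, and on unique reads at -0.76 (-0.98 to -0.55), so that the number of members past 2-fold was 1 or 0 by the choice of reads and scaling.

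*Gimap6* followed where αA held 13882 and PαA 8336 exon reads (log2 -0.64, -0.68 to -0.60), and was the second member past 1.5-fold, where 14.7% of expressed genes passed either way (5.53% higher, 9.19% lower). The count past 1.5-fold was 1 with TMM or median-of-ratios scaling, where *Gimap6* was at -0.57, and 5 with TPM, where *Gimap1*, *Gimap3* and *Gimap4* passed as well. In this comparison TPM moved the ratio of every gene by -0.17 and TMM by 0.07, and the shares of expressed genes are by RPKM. *Gimap3* was at -0.54 (-0.57 to -0.51), *Gimap4* at -0.46 (-0.48 to -0.43) and *Gimap1* at -0.43 (-0.47 to -0.39). On all exon reads, though not on unique or junction reads, the 3 least abundant members had the smallest decreases, at -0.35 for *Gimap8* (-0.41 to -0.29), -0.34 for *Gimap5* (-0.42 to -0.26) and -0.26 for *Gimap9* (-0.33 to -0.20). At the ends of this range, *Gimap7* was 2.06-fold and *Gimap9* 1.20-fold lower, a ratio of 1.71, and the intervals of both genes lay apart.

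Within the family, the decrease changed the shares of the members. *Gimap7* made up 15.8% of the summed RPKM in αA and 11.2% in PαA. *Gimap4* rose in share from 32.8% to 34.8% and *Gimap9* from 4.68% to 5.68% while both were lower in level.

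**Figure D2:**
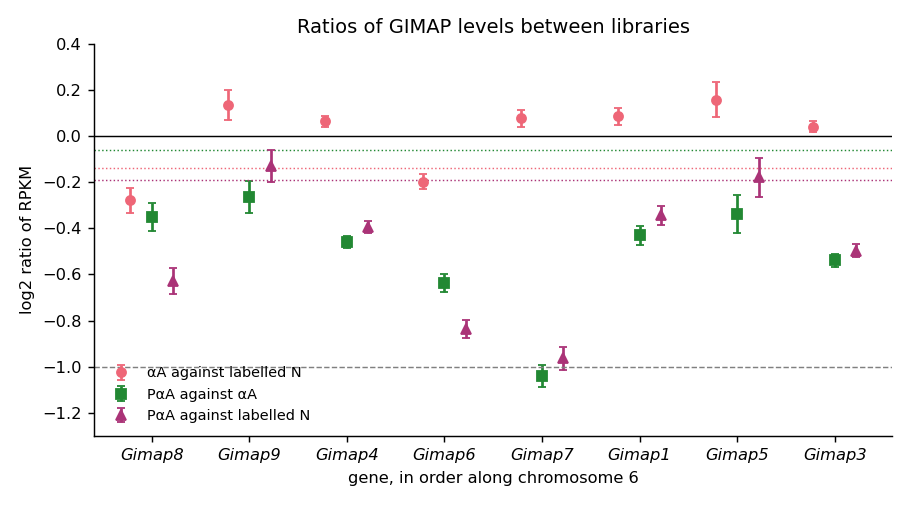
log2 ratio of RPKM for each GIMAP gene in the 3 comparisons (vertical; genes in chromosome order along the horizontal axis), with bars for the 95% counting interval, dotted lines for the median of the 7017 expressed genes in each comparison and a dashed line at 2-fold lower. In PαA against αA all 8 genes lie below the dotted line, with Gimap7 at -1.04 and Gimap9 at -0.26; in PαA against N, Gimap5 and Gimap9 turn above 0 with TMM or median-of-ratios scaling.

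The third comparison, PαA against N, differs in both targeted genes and shares a library with each of the other comparisons. All 8 members were lower in PαA by RPKM, with a median log2 ratio of -0.45 against -0.19 for all expressed genes, but 66.4% of expressed genes were lower too, and *Gimap5* (-0.18) and *Gimap9* (-0.13) turned to 0.05 and 0.10 with TMM scaling. *Gimap7* was at -0.96 (-1.01 to -0.92), *Gimap6* at -0.84 (-0.87 to -0.80) and *Gimap8* at -0.63 (-0.69 to -0.57). These 3 were past 1.5-fold, as were 28.0% of expressed genes (5.67% higher, 22.3% lower). *Gimap8* was short of 1.5-fold with TMM (-0.40), median of ratios (-0.38) and junction reads (-0.43), and with TPM *Gimap3* (-0.69) and *Gimap4* (-0.59) passed too, which makes 5. No member passed 2-fold, with 10.3% of expressed genes past it (2.57% higher, 7.77% lower). The shift of all genes in this comparison was 0.23 with TMM and -0.20 with TPM, the widest of the 3. The shares of expressed genes given here are by RPKM.

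By RPKM, *Gimap6* and *Gimap8* differed from the other members in that they were lower in αA than in N and lower again in PαA. *Gimap8* went from 6712 exon reads to 5071 and 3719, and *Gimap6* from 17375 to 13882 and 8336, in libraries of decreasing size. The first step was small: with TMM scaling it was at -0.12 for *Gimap8* and -0.04 for *Gimap6*. By RPKM the median of all expressed genes in that step was -0.14. The second step of *Gimap8* was not seen on junction reads (0.12). The other 6 were slightly higher in αA than in N and then lower in PαA.

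**Figure D3:**
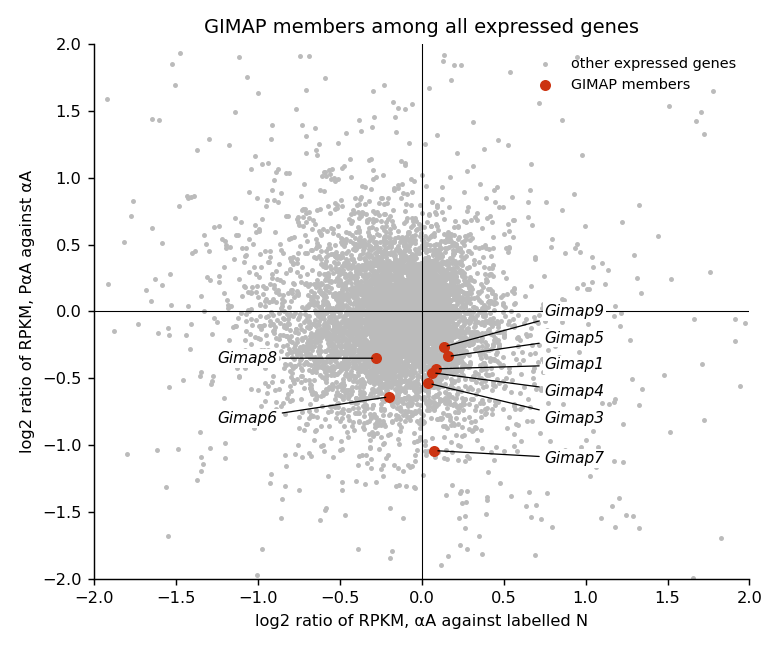
Each point is an expressed gene, placed by its log2 ratio of RPKM in αA against N (horizontal) and in PαA against αA (vertical), with the 8 GIMAP genes in red; both ratios use the αA library, 21 genes without a finite pair of ratios are left out and 92 lie outside the plotted range. The GIMAP genes lie in the lower part, between -0.28 and 0.16 across and between -1.04 and -0.26 down, within the cloud of other genes.

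Reads that could be placed at 1 site differed widely between members. All exon reads of *Gimap4*, *Gimap6* and *Gimap9* were counted as unique in every library, as were 95.2% to 96.5% of those of *Gimap8* and 92.4% to 92.9% of those of *Gimap3*. For *Gimap5* the unique share was 66.4% in N, 69.3% in αA and 66.7% in PαA. For *Gimap1* it was 6.01%, 5.83% and 6.36%, and for *Gimap7* 4.93%, 4.82% and 5.84%.

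The annotation around *Gimap7*, *Gimap1* and *Gimap5* is nested. *Gm28053*, a predicted gene on the plus strand from 48718607 to 48752644, contains 100% of the exon bases of *Gimap7* and *Gimap1* and 19.8% of those of *Gimap5*, and 0% of those of the other members. Its own exons add up to 494 bases, of which 432 are also exon of *Gimap7*, *Gimap1* or *Gimap5*. By sequence alone, 1.72% of the 59-base words of *Gimap7* transcripts, 9.97% of those of *Gimap1*, 12.1% of those of *Gimap5* and 5.56% of those of *Gimap3* occur in transcripts of another gene, and 0% of those of *Gimap4*, *Gimap6*, *Gimap8* and *Gimap9*. The share of non-unique reads of *Gimap7* and *Gimap1* was therefore far above the share of repeated sequence, and all 548, 518 and 285 unique exon reads of *Gimap7* (N, αA and PαA) were reads that span a splice junction.

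Splice junction reads give a second view of the same genes. *Gimap7* had 560 (N), 538 (αA) and 296 (PαA) junction reads. Its log2 ratio in PαA against αA was -0.76 (-0.97 to -0.56), so that its decrease was smaller on them than on all exon reads. *Gimap1* (1115, 1070 and 727) was at -0.46 (-0.60 to -0.32) and *Gimap3* (2202, 2063 and 1306) at -0.56 (-0.66 to -0.46). The decrease was not seen on the junction reads of *Gimap8* (580, 363 and 369, log2 ratio 0.12, -0.09 to 0.33) or beyond counting error on those of *Gimap9* (189, 177 and 155, -0.09, -0.41 to 0.22).

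On unique exon reads all 8 members were lower in PαA than in αA, from -0.76 for *Gimap7* to -0.26 for *Gimap9*. *Gimap4*, *Gimap6* and *Gimap9*, which shared no reads with other genes, gave -0.46, -0.64 and -0.26 on either count.

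**Figure D4:**
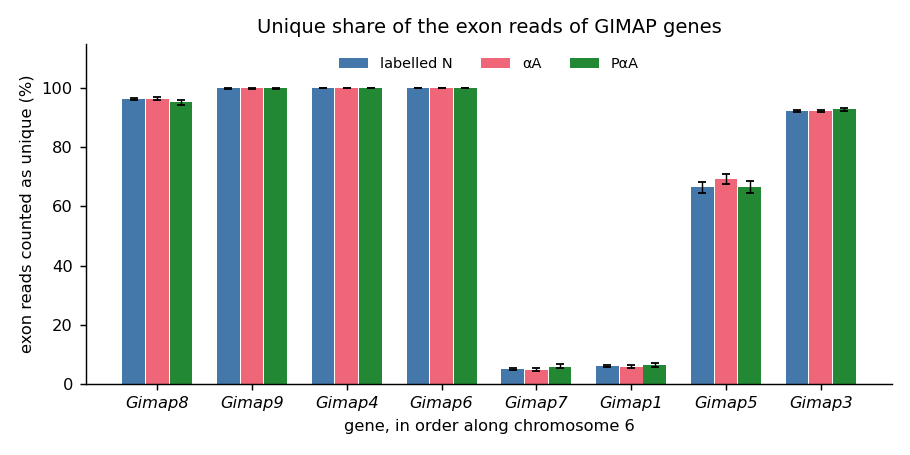
Share of the exon reads of each GIMAP gene counted as unique (vertical, %; genes in chromosome order along the horizontal axis; 1 bar per library, with exact 95% counting intervals). The bars stand at 100% for Gimap9, Gimap4 and Gimap6, between 66.4% and 69.3% for Gimap5, and between 4.82% and 6.36% for Gimap7 and Gimap1.

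Intron reads were few for most members. They made up 11.2%, 12.1% and 13.5% of the gene reads of *Gimap1* in N, αA and PαA and 8.48%, 8.25% and 10.9% of those of *Gimap5*, and at most 3.65% for the other 6. *Gm28053* had 1478, 1583 and 1197 intron reads beside 1486, 1582 and 1243 for *Gimap1*, which lies inside it on the same strand. The antisense gene *Gimap1os* overlaps *Gimap1* too, and strand was not kept. The intron reads of these genes thus cannot be told apart.

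Of the members with unshared introns, *Gimap9* went from 95 intron reads in N and 146 in αA to 50 in PαA (log2 -1.45 in PαA against αA, -1.94 to -0.98). *Gimap6* went from 193 and 247 to 112 (-1.04, -1.38 to -0.72) and *Gimap8* from 201 and 165 to 86 (-0.84, -1.24 to -0.46). *Gimap3* introns, at 590, 427 and 308 reads, were at -0.37 (-0.59 to -0.16). Intron and exon reads of these 4 genes were thus both lower in PαA than in αA, but not by the same amount. On exon reads *Gimap9*, *Gimap6* and *Gimap8* were at -0.26, -0.64 and -0.35, smaller decreases than on intron reads, with intervals apart. *Gimap3* was at -0.54 on exon reads, within its intron interval. *Gimap4*, with 65, 44 and 31 intron reads, was at -0.41 (-1.12 to 0.29), not beyond counting error.

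Genes around the cluster were taken within 500 kb on either side. Of 24 such genes that are not GIMAP members, 17 had reads and 6 were expressed. *Lrrc61*, the nearest expressed gene before *Gimap8*, was at 22.9 RPKM in N, 24.3 in αA and 19.4 in PαA (log2 -0.33 in PαA against αA, -0.43 to -0.23), and *Zfp467* was at 6.65, 5.20 and 2.85.

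On the other side, the first expressed genes after *Gimap3* moved the other way. *Tmem176b* was at 14.7 RPKM in N, 10.2 in αA and 46.1 in PαA (log2 2.18, 2.05 to 2.31, in PαA against αA), and its neighbour *Tmem176a* at 9.19, 10.0 and 36.7 (1.87, 1.75 to 1.99). Both code for membrane proteins of immune cells. *Tra2a*, a splicing factor gene farther away, was at 25.9, 30.0 and 34.9 RPKM. *Gm28053*, which lies within the cluster and shares most of its exon bases with members, was at 11.7, 15.9 and 16.0. Of its 172, 214 and 201 exon reads, 45, 51 and 44 were unique.

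**Figure D5:**
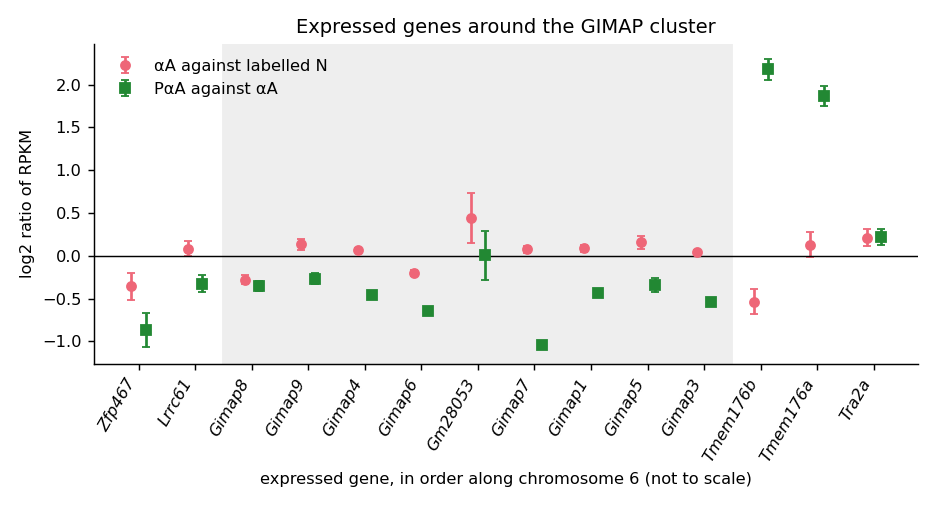
log2 ratio of RPKM in αA against N and in PαA against αA (vertical) for the 14 expressed genes within 500 kb of the GIMAP cluster, in order along chromosome 6 and not to scale, with bars for the 95% counting interval and the cluster shaded. In PαA against αA the 8 GIMAP genes lie between -1.04 and -0.26, while Tmem176b and Tmem176a to their right lie at 2.18 and 1.87.

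The expressed genes outside the family with the most similar pair of ratios (smallest distance to the family total over αA against N and PαA against αA, among 6880 candidates with 100 reads or more in each of the 3 libraries) were *Tor4a*, *Sema4b*, *Fyn*, *Ogfod2* and *Wipi2*. *Fyn*, a kinase of T cell receptor signalling, was at 108 RPKM in N, 112 in αA and 76.7 in PαA, and *Tor4a* at 65.4, 67.4 and 45.8. In all, 77 genes lay within a distance of 0.1 on the log2 scale.

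Lists of related genes were set beside the family. Among 14 autophagy genes, the process in which GIMAP6 takes part, the median log2 ratio in PαA against αA was 0.01, 1 gene (*Ulk1*, a kinase that starts autophagy, 9.04, 7.97 and 4.49 RPKM) was past 1.5-fold and lower, as were 9.19% of expressed genes, and *Gabarapl2*, the partner of GIMAP6, was at 64.9, 66.5 and 85.0 RPKM (0.35, 0.28 to 0.42). Among 7 genes of the BCL2 family of survival and death factors, the median was 0.07 and 0 were past 1.5-fold, where 14.7% of expressed genes passed either way. Of 14 genes tied to T cell quiescence with an RPKM above 1, 8 were lower and 6 higher (median -0.11), where 56.9% of expressed genes were lower. *Klf2*, which controls exit from lymphoid organs, was at 54.3, 56.0 and 178 RPKM and *Foxp1* at 5.26, 6.41 and 3.48.

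Surface genes of naive T cells were mixed. Of 7, 4 were higher and 3 lower in PαA than in αA (median 0.19), with the survival receptor gene *Il7r* at 82.9, 64.2 and 164 RPKM and *S1pr1*, the receptor for egress from lymph nodes, at 55.5, 88.0 and 189. Both were past 2-fold (2.18% of expressed genes in this direction) and higher in the library where the GIMAP genes were lowest.

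Markers of the sorted cells and of other cells were read in the same libraries. The 11 TFR markers were 11 of 11 lower in PαA than in αA (median log2 ratio -0.58), with *Ctla4* at 148, 188 and 58.7 RPKM. Of all expressed genes 56.9% were lower, with a median of -0.06. Ribosomal protein genes took 12.6% (N), 14.2% (αA) and 18.2% (PαA) of exon reads. Summed over 4 plasma cell markers the level was 49.2, 67.1 and 108 RPKM (*Tnfrsf17* at 0 in PαA), over 7 B cell markers 20.6, 14.8 and 16.1, over 5 CD8 T and NK cell markers 15.8, 19.6 and 17.3, over 7 of 8 myeloid markers 269, 173 and 246 (*S100a9* at 0 in αA, and *Lyz2* alone 214, 134 and 184), over 6 endothelial markers 13.7, 10.0 and 10.3 (*Emcn* and *Tek* at 0 in N and PαA) and over 5 erythroid markers 572, 2407 and 2151. Markers within a sum did not all move alike: *Csf1r* was at 6.25, 10.6 and 6.62 RPKM, *Cd8a* at 0.193, 2.10 and 2.90 and *Cd8b1* at 9.07, 12.03 and 5.24. Their part in the GIMAP values was not tested.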

How the data were processed

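Poly(A) RNA of sorted TFR cells was sequenced as single reads in 3 libraries, with a library kit that does not keep strand. The authors trimmed, aligned to GRCm38 and counted the reads in CLC Genomics Workbench, and deposited for each gene whole-number counts of exon, unique exon, junction, intron and gene reads, with RPKM and TPM derived from the exon reads. The annotation release is not given in the sources used here, and all 8 members match GENCODE in start, end and strand. The 3715 of 25759 genes listed with no exon length were left out. Groups were taken from the labels.

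Library totals were recovered from counts, exon length and RPKM. Ratios of RPKM have exact Clopper-Pearson intervals (95%) and single RPKM values Poisson intervals. The interval of the summed level is a normal approximation from the Poisson errors of the members. With 1 library per genotype no test was run. Expressed means an RPKM above 5 in at least 1 library, and list genes needed an RPKM above 1. Named genes were the members, expressed genes within 500 kb, the 5 genes of most similar ratios, and list genes. The members and lists were chosen with earlier results of these data known. Alternatives were TPM, TMM (edgeR 4.0.16, R 4.3.3, factors only), median-of-ratios factors, unique or gene reads, a pseudocount of 1, other thresholds and, chosen after seeing the data, junction reads. Python 3.11.15, pandas 2.3.3, numpy 2.4.6, scipy 1.17.1 and matplotlib 3.10.9 were used, and the intervals were tested on simulated data. Sequences came from RefSeq (GRCm38.p6) and the GRCm38 genome.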

Additional observations from a re-analysis of the deposited data

How the results depend on the processing

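Without replicates, no value can be set against the spread between mice, and no library could be left out. No paired analysis was possible because the labels carry no replicate numbers and each genotype has 1 library. In αA against N, the log2 ratio of the summed level was 0.0035 with TPM, 0.20 with TMM, 0.21 with median-of-ratios factors, 0.017 on unique reads and 0.011 on junction reads, and the median of the members 0.23 with TMM and 0.24 with median of ratios. In PαA against αA, the summed level was at -0.71 (TPM), -0.48 (TMM), -0.47 (median of ratios), -0.48 (unique reads) and -0.51 (junction reads), and the median at -0.61 (TPM), -0.38 (TMM), -0.37 (median of ratios) and -0.52 (junction reads). The count past 2-fold there, 1 as reported, was 0 with TMM, median of ratios, unique and junction reads, and 2 genes passed at 1.5-fold (1 with TMM or median of ratios, 5 with TPM). *Gimap8* turned to 0.12 on junction reads.

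In PαA against N, the summed level was at -0.71 (TPM), -0.28 (TMM), -0.27 (median of ratios), -0.46 (unique reads) and -0.50 (junction reads), and the median at -0.64 (TPM), -0.22 (TMM) and -0.20 (median of ratios). There 2 genes passed 2-fold with TPM, and 3 passed 1.5-fold with RPKM (2 with TMM, median of ratios or junction reads, 5 with TPM). *Gimap5* turned to 0.050 (TMM), 0.065 (median of ratios) and 0.083 (junction reads), and *Gimap9* to 0.10 (TMM) and 0.11 (median of ratios). The scaling alternatives shift all genes alike, by their construction. Shares of expressed genes were counted with RPKM only, so none stands beside the counts under other scalings. For the unique and junction reads the cause was not tested.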

Other observations

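Another family of GTPases in the same libraries, the interferon-inducible GBP, IRG and MX genes that act against intracellular microbes, was also lower in PαA for most members. Of 14 genes, 12 had an RPKM above 1, and in PαA against αA 9 of them were lower and 3 higher. Their median log2 ratio was -0.56, where 56.9% of expressed genes were lower, with a median of -0.06. *Gbp4* was at 17.3 RPKM in N, 14.6 in αA and 7.58 in PαA, and *Gbp5* at 16.3, 13.8 and 7.01. *Gbp3*, *Gbp8*, *Gbp9* and *Iigp1* were also past 1.5-fold and lower, which makes 6 of 12, where 9.19% of expressed genes passed in this direction. With TMM scaling *Gbp3* (-0.58) and *Iigp1* (-0.57) were short of 1.5-fold, which leaves 4 of 12 lower. *Irgm2* (0.63) was then past 1.5-fold and higher. The share of expressed genes was counted by RPKM only. The IRG genes *Igtp* (110, 135 and 153 RPKM), *Irgm1* (55.4, 52.1 and 63.5) and *Irgm2* (19.3, 19.6 and 28.9) were the 3 that were higher. In αA against N the median of the 12 genes was -0.16, near the -0.14 of all expressed genes.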
